A study of Mus musculus with 2 samples.

Results

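The integrin and laminin genes encode the receptors and the scaffold through which cells hold on to a basement membrane. They were taken as all protein-coding RefSeq genes of the mouse whose symbol names an integrin α or β chain or a laminin α, β or γ chain, which gave 37 genes of 21887. The 36 described here, called members below, encode 18 integrin α chains, 8 integrin β chains and 10 laminin chains. The repressive histone mark H3K27me3 (lysine 27 of histone H3 carrying 3 methyl groups) was mapped by chromatin immunoprecipitation and sequencing in whole sciatic nerve. The mice were C57/BL6 males of 8 weeks, and there was 1 ChIP library and 1 input library. The labels name no genotype, treatment or sorting step, and how many animals went into a library is not given in the sources read. Nerve holds Schwann cells, fibroblasts, vessels and immune cells, so a peak can come from any of them, and its height does not separate many cells with little of the mark from few cells with much of it.

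Laminins are secreted trimers of an α, a β and a γ chain that polymerise into basement membranes. Integrins are αβ pairs in the plasma membrane that bind laminins, collagens, fibronectin or proteins on other cells. In peripheral nerve each Schwann cell is wrapped in a basement membrane rich in laminins with the α2 and α4 chains, joined to β1 and γ1, and holds on to it through the integrins α6β1, α6β4 and α7β1 and through dystroglycan. Loss of the α2 chain causes a muscular dystrophy with a neuropathy in mouse and human. H3K27me3 is laid down by Polycomb repressive complex 2 and is found over genes that a cell lineage keeps silent. The mark says nothing directly about the amount of RNA.

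Promoter sequences are given for the single member with a peak at its listed transcription start, Itga11, and for the Schwann cell chains whose start is listed, Itgb1, Lamb1 and Lama2, none of which had a peak. They span 250 bases before to 50 after the start and were taken from RefSeq (GRCm38.p6, the build of the peak list), read 5′ to 3′ along the strand of the gene. Capitals mark CpG dinucleotides, the letters CG, in which Polycomb targets of mammals tend to be rich. The Itga11 promoter (chr9:62677605-62677904, plus strand) held 16, the Itgb1 promoter (chr8:128685404-128685703, plus strand) 27, the Lamb1 promoter (chr12:31265043-31265342, plus strand) 18 and the Lama2 promoter (chr10:27616893-27617192, minus strand) 1.
Itga11: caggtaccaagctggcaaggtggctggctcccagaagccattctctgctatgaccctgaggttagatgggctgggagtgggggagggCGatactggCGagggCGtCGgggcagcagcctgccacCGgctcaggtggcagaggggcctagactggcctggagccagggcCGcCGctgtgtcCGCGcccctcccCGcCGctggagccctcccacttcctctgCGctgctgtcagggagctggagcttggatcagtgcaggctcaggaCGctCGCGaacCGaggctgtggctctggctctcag
Itgb1: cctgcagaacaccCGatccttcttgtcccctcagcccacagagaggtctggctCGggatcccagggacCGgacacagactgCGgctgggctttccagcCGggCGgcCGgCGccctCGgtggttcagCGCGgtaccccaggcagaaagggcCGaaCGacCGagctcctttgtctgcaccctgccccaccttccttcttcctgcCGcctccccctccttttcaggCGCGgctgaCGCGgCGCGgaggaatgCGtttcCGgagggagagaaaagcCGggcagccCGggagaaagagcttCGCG
Lamb1: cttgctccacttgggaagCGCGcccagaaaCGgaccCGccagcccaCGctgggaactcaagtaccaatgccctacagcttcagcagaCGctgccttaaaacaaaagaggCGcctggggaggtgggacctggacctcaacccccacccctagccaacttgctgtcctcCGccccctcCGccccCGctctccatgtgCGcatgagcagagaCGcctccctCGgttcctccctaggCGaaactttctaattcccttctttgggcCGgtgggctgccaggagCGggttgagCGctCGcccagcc
Lama2: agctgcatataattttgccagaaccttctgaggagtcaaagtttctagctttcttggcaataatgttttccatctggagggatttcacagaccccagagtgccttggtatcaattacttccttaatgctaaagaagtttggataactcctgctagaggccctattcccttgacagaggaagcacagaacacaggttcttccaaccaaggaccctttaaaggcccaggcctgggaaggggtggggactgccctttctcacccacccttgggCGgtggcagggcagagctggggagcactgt

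The deposited data are 1 list of 6018 peaks covering 7.61 Mb, each with a score from the authors' processing. Read as whole reads (score divided by its step of 2.5735), the peaks held 10 reads or more and a median of 14, and 43.6% held 12 or fewer. A gene without a listed peak may therefore still carry reads below that floor. A gene was counted as having a peak when 1 bp or more of a peak fell in its annotated span or the 2 kb on either side. All intervals given for reads are exact 95% Poisson intervals and cover counting error only. The 1 ChIP library gives no spread between animals, and no p-value was computed. The list of a repressive mark does not show which cells were present. Of the markers checked, a peak lay over 3 of 7 for Schwann cells (Egr2, Sox10 and Mbp, 11 to 18 reads each), 1 of 5 for fibroblasts and perineurial cells (Pdgfra, 3 peaks with 68 reads), 0 of 4 for endothelium, 0 of 5 for macrophages and other leukocytes and 2 of 4 for epithelium (Epcam with 17 reads and Cdh1 with 10), beside 10.5% of all protein-coding genes.

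Itga11, Itga9, Itgad, Itgam and Lamc3 had 1 peak each, and 31 members had none. That is 5 of 36 (13.9%, exact Clopper-Pearson 95% interval 4.67 to 29.5), beside 10.5% of all protein-coding genes. The median number of reads in peaks was 0 over the 36 members and 0 over all protein-coding genes. Among genes with a peak, the 5 members had a median of 11 reads and the 2302 genes of the whole set a median of 26. The 5 peaks covered 3.23 kb, or 0.0909% of the 3.56 Mb of member genes and flanks, beside 0.464% of the same windows over all protein-coding genes. The share of members with a peak was thus near that of genes at large, while the share of their bases under a peak was lower in this library. That share of bases rests on 5 peaks and was not weighted by length. Member genes are longer than genes at large by median, so the 2 shares of bases are not matched.

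**Figure D1:**
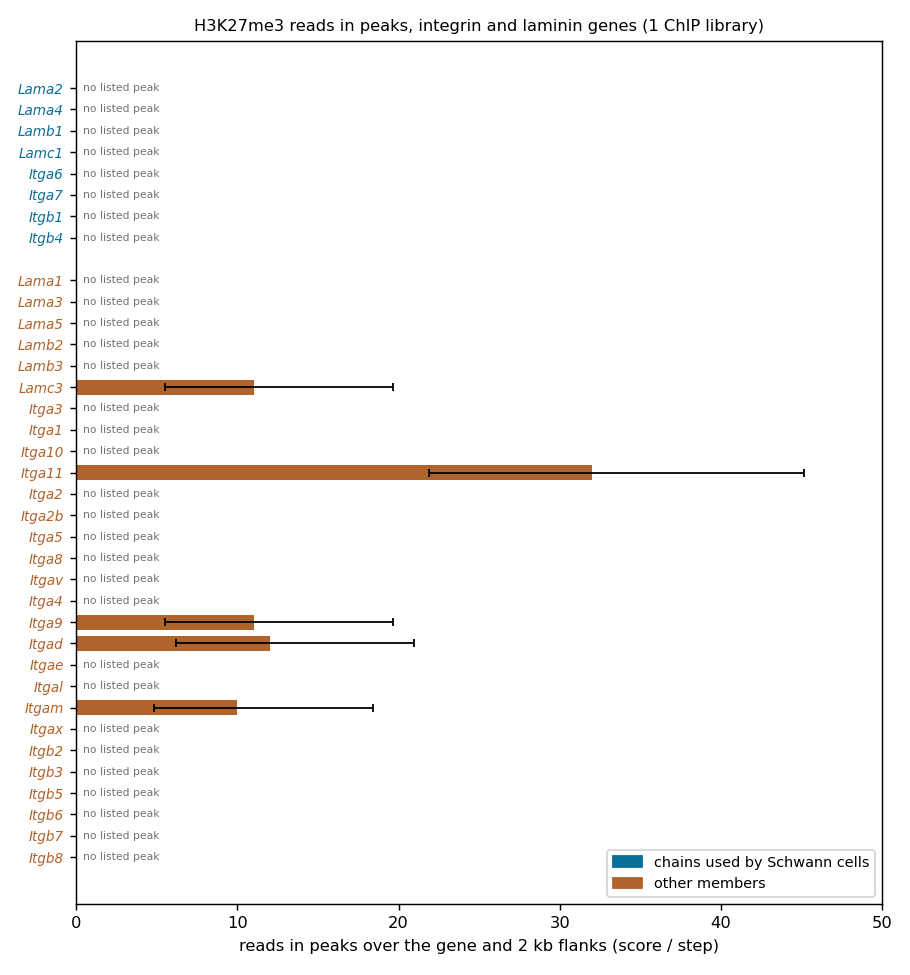
Reads in peaks (horizontal axis) over each gene and its 2 kb flanks for the 36 members, with the 8 chains used by Schwann cells above and the 28 other members below. Bars are the reads of 1 ChIP library and whiskers exact 95% Poisson intervals; Itga11 stands at 32 reads, 4 other members at 10 to 12, and the rest have no listed peak.

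Member genes are long, with a median length of 62.1 kb beside 17.2 kb for all protein-coding genes, and a long gene offers a peak more room. No member was as short as 10 kb, a class in which 8.3% of all genes had a peak. Of 7 members of 10 to 30 kb, 0 had a peak, beside 8.3% of all genes of that length. Of 18 members of 30 to 100 kb, 3 had one (Itgad, Itgam and Lamc3), beside 11.3%. Of 11 members over 100 kb, 2 had one (Itga11 and Itga9), beside 22.0%. Weighted to the members' own length classes, the share over all protein-coding genes was 14%, beside the members' 13.9%.

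**Figure D2:**
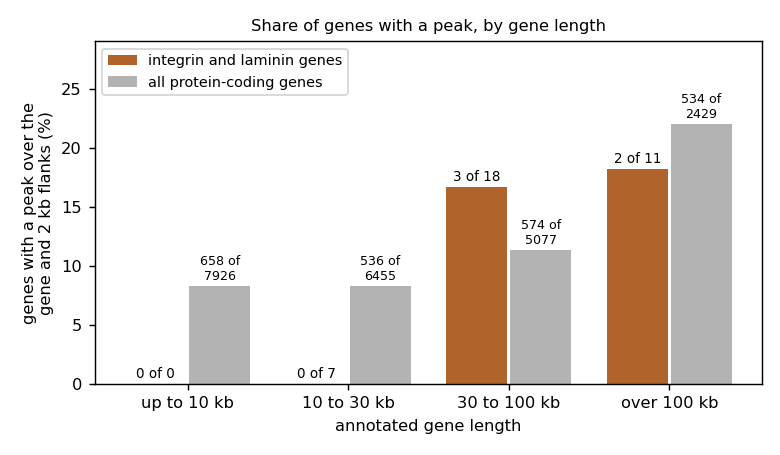
Share of genes with a peak (vertical axis, percent) in 4 classes of annotated length, with members on the left of each pair and all protein-coding genes on the right, and the counts written above the bars. Members stood above all genes at 30 to 100 kb (3 of 18 beside 11.3%) and below them over 100 kb (2 of 11 beside 22.0%).

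None of the chains on which Schwann cells are known to rely had a peak. The list was set from textbook knowledge, but with earlier results of these data known. It holds the laminin chains Lama2, Lama4, Lamb1 and Lamc1 and the integrin chains Itga6, Itga7, Itgb1 and Itgb4. Peaks numbered 0 of 8 among these chains, which allows a share of up to 37.5%, and 5 of 28 among the other members (17.9%). The limit lies above both the other members' share and the 10.5% of all genes, so a difference was not detectable with 8 genes. The 8 genes span 1.17 Mb with their flanks and 0.0% of those bases were covered. Among them is Lama2, at 635.91 kb the longest member (chromosome 10, 26981285 to 27617191, mm10), which encodes the α2 chain mentioned above. By length, 1 of the 8 falls in the class of 10 to 30 kb, 4 in that of 30 to 100 kb and 3 in that over 100 kb, and the share over all genes weighted to these classes was 14.9%.

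A wider list added 7 chains reported in developing, repair or non-myelinating Schwann cells or at the node of Ranvier: Lama5, the collagen receptor chains Itga1 and Itga2, the laminin receptor chain Itga3, the fibronectin receptor chain Itga5, and Itgav with its partner Itgb8. None of these had a peak either, so the count was 0 of 15, which allows a share of up to 20%, beside 5 of 21 for the remaining members (23.8%). That limit lies above the 10.5% of all genes, so 15 genes do not separate the list from genes at large.

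No Schwann cell chain of the list of 8 lay within 100 kb of a peak, which was also so for most protein-coding genes. The distance from the gene to the nearest peak was over 100 kb for 8 of 8 Schwann cell chains and for 17 of 28 other members, with medians of 302 kb and 134 kb. The median over all protein-coding genes was 205 kb, between those of the Schwann cell chains and the other members, and 35.5% of all genes lay within 100 kb of a peak, beside 30.6% of the 36 members. Itgb4, the β chain of the hemidesmosome-like receptor α6β4, was nearest at 115 kb, and its partner Itga6 followed at 192 kb. Lamb1 lay 229 kb, Lama2 285 kb and Lamc1 320 kb from a peak. Lama4 (816 kb), Itga7 (1400 kb) and Itgb1 (2310 kb) were the most remote, and Itgb1 was the farthest of the 36 members. Itgb1 encodes the shared β chain of most matrix-binding integrins. On the wider list, 2 of 15 chains (13.3%) lay within 100 kb of a peak, Itga3 at 43.1 kb and Lama5 at 63.5 kb, and the median was 285 kb. With 8 or 15 genes and 1 library these distances were described and not tested.

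**Figure D3:**
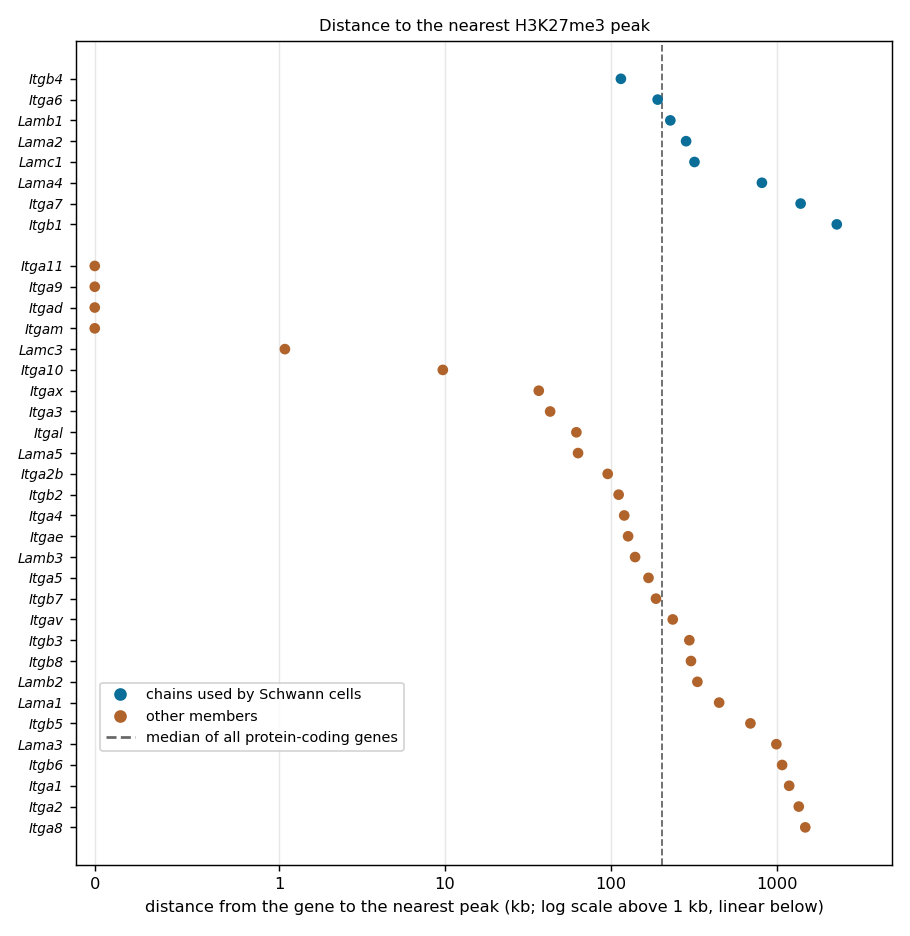
Distance from each gene to its nearest peak (horizontal axis, kb, logarithmic above 1 kb and linear below), with Schwann cell chains above and other members below, each sorted by distance. The dashed line is the median of all protein-coding genes (205 kb); the Schwann cell chains run from 115 to 2310 kb, and 4 other members stand at 0.

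The 10 laminin genes had 1 peak in all, and it lay outside the gene. None of the α chain genes (Lama1, Lama2, Lama3, Lama4 and Lama5) and none of the β chain genes (Lamb1, Lamb2 and Lamb3) had a peak, and Lamc1, which encodes the γ1 chain, had none. Lama3 and Lamb3 encode chains of epithelial basement membranes, and Lama1 the α chain of the earliest embryonic basement membranes. The single peak, of 500 bp with 11 reads (5.491 to 19.68), was counted for Lamc3, a γ chain of broad distribution in brain, retina and other tissues. It lay at chromosome 2, 31950168 to 31950667, which begins 1085 bp beyond the right annotated end of Lamc3 and covers the left annotated end of its neighbour Aif1l, at 31950303. Lamc3 itself had 0.0% of its span covered, and without the flanks 0 laminin genes had a peak, beside 9.77% of all protein-coding genes. With 10 genes neither count separates the laminin genes from genes at large.

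Integrin α chain genes held the other 4 peaks, with 4 of 18 genes (22.2%, exact Clopper-Pearson 95% interval 6.41 to 47.6), beside 0 of 8 integrin β chain genes and 10.5% of all protein-coding genes. The interval of the α chains holds the share of all genes. A count of 0 of 8 allows a share of up to 37.5%, which does not separate the β from the α chains. Itgb1, Itgb2, Itgb3, Itgb4, Itgb5, Itgb6, Itgb7 and Itgb8 all lay more than 100 kb from any peak, between 112 kb (Itgb2) and 2310 kb (Itgb1). Of all protein-coding genes, 35.5% lay within 100 kb of a peak, so most of them were also beyond that distance. The β chains that pair with the products of the 4 α chain genes are Itgb1 for Itga11 and Itga9, and Itgb2 for Itgad and Itgam, and neither had a peak.

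Itga11 had the strongest peak of the family and the only one at a listed transcription start. It encodes the α11 chain, a receptor for fibrillar collagen found mainly on fibroblasts and other mesenchymal cells. The peak was 1100 bp wide (chromosome 9, 62677608 to 62678707) and held 32 reads (21.89 to 45.17), or 29.09 reads per kb. It ran across the start at 62677855, from 247 bp before it to 852 bp after it, and covered most of the promoter printed above and 0.804% of the gene. Of all 6018 peaks, 78.03% held fewer reads and 70.84% were narrower. Set beside the 1278 protein-coding genes with a peak within 2 kb of a listed start, it stood near the middle, since 57.4% of them had fewer reads there and their median was 26. No other peak lay in the 106.12 kb of the gene, the nearest was 13.4 kb from it with 10 reads, and 3 others lay within 1 Mb.

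The remaining collagen-binding α chains had no peak. Itga1 and Itga2, receptors that favour network-forming and fibrillar collagens, lie 26.0 kb apart and were 1190 and 1360 kb from the nearest peak. Itga10, the chondrocyte collagen receptor chain, was 9.72 kb from a peak of 10 reads that lies within 2 kb of Ankrd35. The count in this class was thus 1 of 4 (25%, exact Clopper-Pearson 95% interval 0.631 to 80.6), beside 10.5% of all protein-coding genes. With 4 genes the interval holds the share of all genes, so the count does not separate this class from genes at large.

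The other 3 integrin peaks were small and lay inside genes, away from any annotated end. Itga9, whose product pairs with β1 and binds tenascin-C and osteopontin, had a peak of 633 bp with 11 reads (5.491 to 19.68) 67.9 kb into its 294.3 kb (chromosome 9, 118674641 to 118675273). This was 36.4 kb before the one start listed for the gene, at 118711692 on the plus strand. That start lies inside the gene and not at its left annotated end, 118606709. Itgam, the α chain of the macrophage and neutrophil receptor Mac-1, had a peak of 500 bp with 10 reads (4.795 to 18.39), 22.7 kb from its listed start (chromosome 7, 128085340 to 128085839). Itgad, a leukocyte α chain encoded in the same cluster, had one of 500 bp with 12 reads (6.201 to 20.96), 13.6 kb from its left end (chromosome 7, 128187488 to 128187987). These 3 intervals overlap one another, and 500 bp is the shortest width in the list, shared by 2505 peaks. Across all protein-coding genes with a peak but none within 2 kb of an end, the median was 14 reads over 423 genes.

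**Figure D4:**
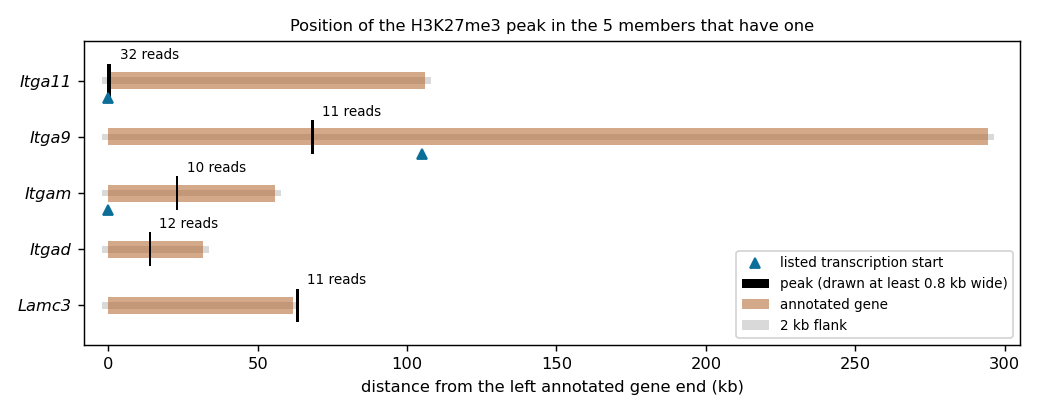
Position of the peak in each of the 5 members that have one, as distance from the left annotated gene end (kb), with the gene, its 2 kb flanks, the listed start where there is one and the reads of the peak. The Itga11 peak lies on the start, those of Itga9, Itgam and Itgad inside the gene, and that of Lamc3 beyond the right end.

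Leukocyte integrin genes had both of their peaks in 1 gene cluster. Itgam, Itgax and Itgad follow each other on chromosome 7, with gaps of 11 and 23.3 kb. Peaks lay in the outer genes, 102 kb apart, and none in Itgax, the α chain of dendritic cells and macrophages, which was 36.8 kb from the nearest. Itgal, the α chain of LFA-1 on lymphocytes, Itgae, the α chain of tissue-resident T cells, and Itga4, an α chain of leukocytes and neural crest cells, had none. The common leukocyte chain Itgb2 and the gut-homing chain Itgb7 had none either, so 2 of 8 leukocyte integrin genes had a peak (25%, exact Clopper-Pearson 95% interval 3.19 to 65.1), beside 10.5% of all protein-coding genes. With 8 genes the interval holds the share of all genes.

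Other members are named here for completeness of the family. The laminin-binding α chains Itga3, Itga6 and Itga7 had a peak in 0 of 3. Those that bind the RGD sequence of fibronectin, vitronectin or fibrinogen (Itga5, Itga8, Itgav and the platelet chain Itga2b) had one in 0 of 4. With 3 and 4 genes these counts do not separate either class from the 10.5% of all protein-coding genes. The platelet β chain Itgb3 and the epithelial β chain Itgb6 had none. Of the members without a peak, a pair with a developmental gene nearby was picked after values were seen. Itga3 lay 43.1 kb from a peak of 2473 bp with 55 reads that lies within 2 kb of the homeobox gene Dlx3, and Itga4 lay 121 kb from a peak of 6429 bp with 128 reads that lies within 2 kb of Neurod1, a neuronal factor.

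At starts rather than whole genes, the count of members was lower, and the share over all protein-coding genes was lower too. A start was listed for 23 of the 36 members, and 1 of 23, Itga11, had a peak within 2 kb of it, beside 7.31% of the 17492 protein-coding genes with a listed start. Counted within 2 kb of either annotated end, which needs no strand, Itga11 and Lamc3 had a peak. That is 2 of 36 members, beside 8.59% of all protein-coding genes. Counts of 1 and 2 genes do not separate the members from genes at large. For Itga9 the start listed lies inside the gene, and neither annotated end had a peak within 2 kb. Listed starts of some other members also lie inside the gene. Examples on the plus strand are Itgav (83724397, left end 83722303) and Lamb3 (193301994 and 193302243, left end 193294353). No start was listed for Itga6, Itga7, Itgad, Itgae, Itgal, Itgb2, Itgb3, Itgb4, Lama1, Lama3, Lama4, Lamc1 and Lamc3.

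Member promoters had a lower median and a lower upper quartile of CpG number than promoters at large, described here and not tested. The 26 listed ones had a median of 11 in 300 bases (quartiles 5 and 17.5), beside 13 (quartiles 4 and 24) for all 21263 promoters of protein-coding genes. The median ratio of observed to expected CpG was 0.44 in member promoters and 0.57 in all promoters. Promoters with a peak within 2 kb of the start had a median of 18 (quartiles 10 and 27), and those without a median of 12 (quartiles 3 and 24). The Itga11 promoter, with 16, fell between these medians, and its ratio of observed to expected CpG was 0.46, beside a median of 0.655 for promoters with a peak and 0.55 for those without. Of all promoters with 10 to 19, 11.3% had a peak at the start, and of the 9 member promoters in that range 1 did. Member promoters with 20 or more numbered 6 (Itga3, Itga8, Itgav, Itgb1, Itgb5 and Lama5), and 0 of them had a peak, beside 8.74% of all such promoters. At the other end, the Lama2 promoter with its single CpG belongs to a range, 0 to 4, in which 1.74% of all promoters had a peak. The listed start of Lama2, at 27616942 on the minus strand, lies inside the gene and not at its right annotated end, 27617191. Its printed promoter is thus almost wholly within the annotated gene. The Schwann cell chains with a listed start thus ran from 1 CpG (Lama2) over 18 (Lamb1) to 27 (Itgb1), and none had a peak.

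**Figure D5:**
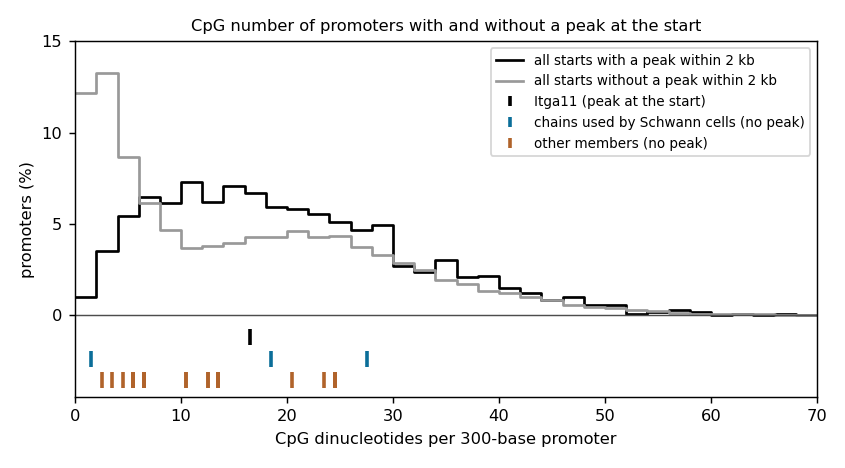
Number of CpG dinucleotides in 300-base promoters (horizontal axis) against the share of promoters (vertical axis, percent), for all starts with and without a peak within 2 kb, with member promoters as ticks below the axis. The Itga11 tick lies at 16, and the ticks of Schwann cell chains lie at 1, 18 and 27.

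Partners of these receptors outside the family had a peak in shares of 10.5 to 16.7% over 4 lists, beside 10.5% of all genes. The exact Clopper-Pearson 95% interval of each list holds that share, the widest being 2.09 to 48.4 for the basement membrane genes. The lists were not weighted by length. Median lengths were 110 kb for basement membrane, 59.1 kb for dystroglycan complex, 14.1 kb for ligand and 41.9 kb for adaptor genes, beside 17.2 kb for all protein-coding genes. Of 12 other basement membrane genes, 2 had a peak (16.7%): Ntn4, a netrin that binds laminin, with 12 reads and a 679 bp peak at its start, and Col4a3, a type IV collagen chain of kidney, with 10 reads. Nid1, Hspg2 and Agrn, which link laminin to collagen IV or to cell receptors, had none. Of 19 genes of the dystroglycan complex and its glycosylation, 2 had one (10.5%). These were the dystrobrevin gene Dtna (24 reads) and the sarcoglycan gene Sgcd (12 reads). Dag1, which encodes dystroglycan, and its Schwann cell partners Drp2, Prx and Utrn had none.

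Of 20 other integrin ligands, 3 had a peak (15%). Mfge8, a ligand of αv integrins, had 16 reads in a peak that also lies within 2 kb of Hapln3, the tenascin gene Tnxb had 14 and Cdh1, the E-cadherin bound by αEβ7, had 10. Fn1, Vtn, Tnc and Spp1 had none. Among 27 adaptor and signalling genes 3 had a peak (11.1%). Fermt1, the kindlin of epithelia, had 55 reads (41.43 to 71.59) in a 2328 bp peak at its start, more than any member. Tns1 and Parvb had 12 and 10 reads. The kindlin gene Fermt2, the talin gene Tln1, Ilk and Ptk2, which act beneath β1 integrins in most cells, had no peak. The median reads in peaks was 0 in each of these 4 lists.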

How the data were processed

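H3K27me3 was mapped in sciatic nerve with 1 ChIP library and 1 input library. The file holds, as deposited by the authors, peaks with a score each. Per the submitters' processing notes, Bowtie and build mm10 were used. The peak caller, its threshold, the use of the input and the meaning of the score are not given in the sources read. Whole multiples of 2.5735 matched 99.92% of the scores to within 0.05, so each score was divided by this step and read as reads. Input values were not analysed here.

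Genes and promoters came from RefSeq (GRCm38.p6). The gene table gives no strand or exons, so exon and intron positions are not stated. Starts and strands came from the promoter table, which lists 23 of the 36 members. Positions are 1-based. Length classes were up to 10, 10 to 30, 30 to 100 and over 100 kb. For a share of 0, the largest share allowed was taken as 3 counts of the total. Overlap counting was tested on simulated peaks. Python 3.11.15, pandas 2.3.3, numpy 2.4.6, scipy 1.17.1 and matplotlib 3.10.9 were used.

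The members and all lists were chosen with earlier results of these data known. The naming rule takes 37 genes. A single one of these and a few genes of the other lists are not reported here and enter no count of members or lists. The 36 members were all named, each one with a peak with its values, and of other lists the 3 genes with the most reads. The promoters printed by rule were those of members with a peak at the start and of Itgb1, and those of Lamb1 and Lama2 were added after values were seen. The alternatives tried were other windows, peak thresholds, overlaps, attribution to 1 gene, backgrounds and the wider list.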

Additional observations from a re-analysis of the deposited data

How the results depend on the processing

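The count of Schwann cell chains with a peak was 0 of 8 under all 7 other windows, thresholds and overlaps tried, and 0 of 15 with the wider list. Those 7 settings could not have raised the count of 0, so they add nothing to it. All but the 5 kb flanks narrow the window or leave out peaks, and the peak nearest to any of the 8 chains lay 115 kb away. The 5 members with a peak became 4 without flanks or without peaks shared with another protein-coding gene, in both cases by the loss of Lamc3. Their number fell to 2 (Itga11 and Lamc3) within 2 kb of gene ends, and to 1 (Itga11) with peaks whose score reached the median (36.0) or with at least 20 reads, where 7.08% and 5.46% of all genes had one. All of these are other members, so the counts of other members moved alike. The losses follow from the settings, which leave out peaks inside genes or peaks of 10 to 12 reads. Flanks of 5 kb and an overlap of 500 bp left the count at 5. Neither setting could have lowered it. Wider flanks lose no peak, and each of the 5 peaks is at least 500 bp wide and lies wholly within its window. The share over all genes was 11.2% without olfactory and vomeronasal receptor genes and 11.1% on autosomes, a background added after seeing the data. Itga11 kept its peak at the start with windows of 1 and 5 kb and with at least 20 reads. That outcome was fixed in advance, since the peak covers the start and holds 32 reads. With 10 reads the lowest listed peak, weaker marking of any member cannot be seen in the list.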

Other observations

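Relatives outside the naming rule were looked up after the values of the members had been seen. Of 8 genes with laminin-type or integrin-type domains (Ntn1, Ntn3, Ntn4, Ntn5, Ntng1, Ntng2, Itgb2l and Itgbl1), 2 had a peak (25%, exact Clopper-Pearson 95% interval 3.19 to 65.1), beside 10.5% of all protein-coding genes. They were the netrin genes Ntn4, with 12 reads (6.201 to 20.96), and Ntn1, a guidance cue for axons, with 11 reads (5.491 to 19.68) in a peak of 500 bp within 2 kb of an annotated end.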
